A study of Mus musculus with 6 samples.

Results

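Motile cilia genes were taken as 41 named genes that build or switch on the beating cilium, and all 41 had a row among the 43496 gene entries of the deposited table. Dnah12 had a pair of rows, and the row with the higher mean was used. The samples were mouse cranial bases, largely cartilage beneath the developing brain, collected at embryonic stage E15.5, and total RNA of each embryo gave 1 library. The 3 mutant embryos carried an ENU allele of Memo1, that is, an allele from a screen with the chemical mutagen N-ethyl-N-nitrosourea, and the 3 embryos labelled control were their comparison. All 6 were of the C57BL/6J strain, and whether the controls were wild type or heterozygous is not stated in the sources used here. Values were FPKM, fragments per kilobase of transcript scaled to library size, so levels can be compared between genes.

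A motile cilium is a hair-like organelle whose core, the axoneme, bends when dynein motors walk along its microtubule doublets. Radial spokes and the central pair of microtubules set the beat. In multiciliated cells of the airway, the nasal cavity and the ependyma, multicilin (Mcidas) starts the programme, and the transcription factors Foxj1, Rfx2 and Rfx3 switch on the genes of the axoneme. Most cells of cartilage carry a single primary cilium, which lacks dynein arms and does not beat.

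The library of mutant 1 stood apart. It listed 823 genes at 0 that were above 5 FPKM in each of the other libraries, a count that was 0 for every other library, and 21.9% of tested genes were at 0 there. Across genes, r on the log2 scale between it and any other library was 0.748 to 0.762, against 0.968 or more among the other 5. Relative depth, read from the steps between low values, was 117%, 152%, 80.2% and 93.4% of that of control 1 in mutant 2, mutant 3, control 2 and control 3. Mutant 1 had no usable steps, so its depth is unknown. A 0 in it may be a failed estimate. Cartilage genes marked the tissue in all libraries: the summed level of 19 of them was 7733 to 8558 FPKM in mutants and 5202 to 6842 FPKM in controls. Memo1 was 25.4, 20.1 and 22.2 FPKM in the mutants, against 19.1, 23.1 and 21.9 FPKM in the controls, and these ranges overlapped.

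In mutants 2 and 3 the structural genes of the motile cilium had group medians of 44.3% to 50.1% of the control level. The genes grouped as regulators stood closer to controls. The structural groups also hold the dynein arm assembly factors Zmynd10 and Lrrc6. Of the 31 tested structural members, 28 had mutants 2 and 3 below all 3 controls, against 20.1% of all tested genes. Over all 31 the levels ranged from 5.76% to 76.0% of the control mean, with a median of 47.0%. The 5 genes grouped as regulators, Foxj1, Mcidas, Rfx2, Rfx3 and the kinase Stk36, stood at 74.7% to 96.5%, with a median of 78.4%. Over all tested genes the median was 98.6%. Counting every member, tested or not, mutants 2 and 3 lay below the controls in 34 of 41, against 15.2% of all entries above 0 in some library. The difference between regulators and structural genes was not tested. Fewer ciliated cells in the tissue and less RNA of these genes per ciliated cell cannot be told apart in bulk tissue.

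**Figure D1:**
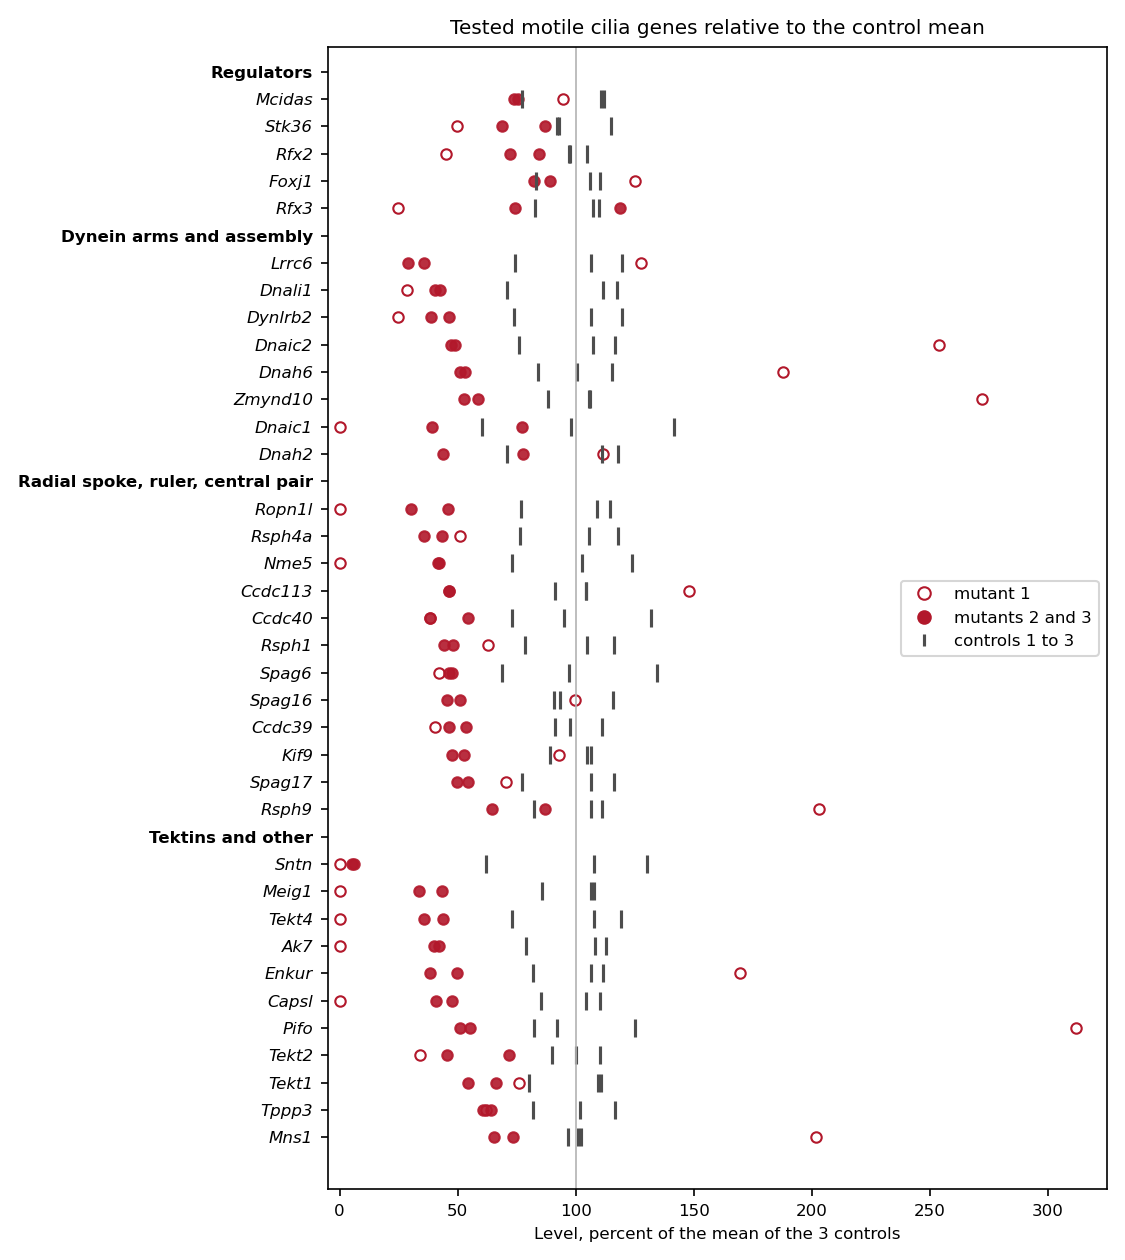
Level of each of the 36 tested motile cilia genes as a percentage of the mean of the 3 controls (horizontal axis), by role. Open circles are mutant 1, filled circles mutants 2 and 3, and vertical ticks the controls. In most structural genes the filled circles lie left of all ticks, whereas mutant 1 ranges from 0 to 312%.

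The comparison of mutant with control asked which genes differ in the cranial base. Entries averaging 1 FPKM or more across the 6 libraries entered a limma fit on log2(FPKM + 1), a scale that understates changes of low genes. This left 36 members. Hydin, Dnah12, Dnah11, Dnah9 and Dnah5 were under the minimum, with means of 0.619 to 0.962 FPKM, and Sntn, at 1.03 FPKM, was just above it. With all libraries counted equally limma called none of the members after Benjamini-Hochberg adjustment (smallest adjusted p = 0.695), and 0% of all tested genes. The log2 change was below 0 in 35 of 36 members, against 54.2% of all tested genes. At an unadjusted p under 0.05 it had 14 of 36 members lower and 0 higher, against 3.01% of all tested genes lower. With array weights, which give a library far from its group less weight (0.0329 for mutant 1, and 1.47 to 2.76 for the others), limma called 15 of 36 members, all lower, against 1.32% of all tested genes called lower (207 of 15710) and 2.04% called in either direction. The weighted log2 change was below 0 in 36 of 36 members, against 53.5% of all tested genes. The median log2 change of the members was -0.59 with equal weights and -0.82 with array weights, against -0.046 and -0.017 over all tested genes. This count depended on which libraries were in the fit. Without mutant 1 limma called 0 of 36 members (smallest adjusted p = 0.0507), against 0.0446% of all tested genes in either direction and 0.0318% lower. In that fit 29 of 36 members had an unadjusted p under 0.05, all lower, against 9.41% of all tested genes, and 36 of 36 were below 0, against 52.9%. With array weights the count was also 0 without mutant 2, mutant 3 or control 3, 2 without control 1 and 19 without control 2. Of all 15710 tested genes these fits called 0, 0, 51, 104 and 232 in either direction, in that order. "Fell" below means an adjusted p under 0.05 by limma with array weights and all 6 libraries.

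The 3 mutants all lay below the 3 controls in 20 of 36 tested members, against 11.9% of all tested genes. Sntn, Ropn1l, Ak7, Tekt4, Capsl, Meig1 and Nme5 are among the 20 with a listed 0 in mutant 1, which may be a failed estimate. Mutant 1 did not follow one direction: it lay above all controls in 10 members and below them in 22, against 42.5% and 48.3% of all tested genes. Of the 15 members that fell, 6 were listed at 0 in mutant 1 and 4 were above every control there. The remaining 5, Dynlrb2, Dnali1, Rsph1, Ccdc39 and Rsph4a, were above 0 in every library and lower in all 3 mutants.

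**Figure D2:**
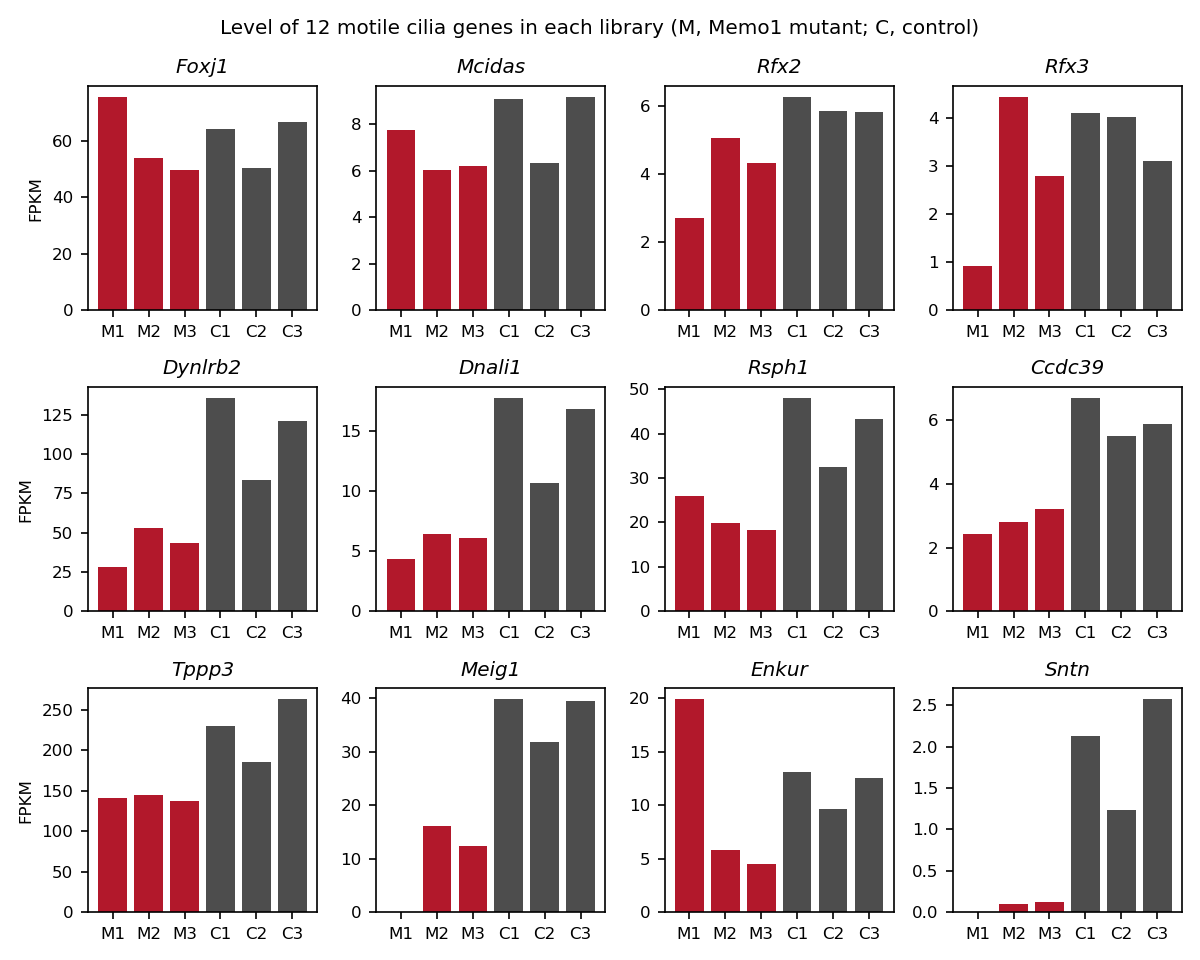
Level in FPKM (vertical axis, from 0) of 12 motile cilia genes in each library; red bars are mutants 1 to 3 and grey bars controls 1 to 3. Foxj1 and Mcidas overlap between genotypes, Dynlrb2, Dnali1, Rsph1, Ccdc39 and Tppp3 are lower in all 3 mutants, and Meig1 and Sntn are listed at 0 in mutant 1.

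Of the 5 regulators none fell, against 1.32% of all tested genes. Foxj1, the forkhead factor that commands motile ciliogenesis, was 75.7, 53.8 and 49.8 FPKM in the mutants, against 64.1, 50.4 and 66.7 FPKM in the controls. The groups overlapped, with the highest value in mutant 1 and the lowest in mutant 3. Its weighted log2 change was -0.20 (95% interval -0.49 to 0.080, limma adjusted p = 0.428). Mcidas was 7.74, 6.04 and 6.19 FPKM in the mutants, against 9.07, 6.33 and 9.17 FPKM in the controls, so mutant 1 lay among the controls. Rfx2 was 2.71, 5.06 and 4.32 FPKM in the mutants, against 6.28, 5.85 and 5.81 FPKM in the controls. Here all mutants were below all controls, with the widest gap in mutant 1. The weighted log2 change of Rfx2 was -0.33 (95% interval -0.60 to -0.060, limma adjusted p = 0.189). Rfx3 was 0.931, 4.45 and 2.79 FPKM in the mutants, against 4.12, 4.02 and 3.11 FPKM in the controls, with mutant 2 the highest of the 6. Stk36, a kinase that mouse cells need to build the central pair, was 3.12, 5.46 and 4.33 FPKM in the mutants, against 5.84, 5.77 and 7.22 FPKM in the controls. Its groups did not overlap, and the limma adjusted p with array weights was 0.25.

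Of the 8 tested genes of dynein arms and their assembly, 4 fell, against 1.32% of all tested genes. Dynlrb2, a light chain of the roadblock family of dyneins, was 28.3, 52.7 and 43.7 FPKM in the mutants, against 135.9, 83.7 and 120.7 FPKM in the controls. Even the lowest control stood above the highest mutant. Its log2 change was -1.44, SE 0.29, with equal weights and -1.22, SE 0.19, with array weights (limma adjusted p = 0.0343). Dnali1, a light intermediate chain of the inner arm, was 4.31, 6.44 and 6.06 FPKM in the mutants, against 17.7, 10.7 and 16.8 FPKM in the controls. It fell to 41.5% of the control mean in mutants 2 and 3 (limma adjusted p = 0.0432 with array weights). Zmynd10 and Lrrc6 assemble dynein arms in the cytoplasm before they enter the cilium. Zmynd10 was 73.9, 15.9 and 14.3 FPKM in the mutants, against 28.8, 24.0 and 28.7 FPKM in the controls. Lrrc6 was 4.43, 1.24 and 1.01 FPKM in the mutants, against 4.14, 2.57 and 3.68 FPKM in the controls. In both, mutants 2 and 3 were the lowest libraries and mutant 1 the highest (limma adjusted p = 0.0398 for Zmynd10 and 0.0433 for Lrrc6, with array weights).

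The outer arm chains did not pass. Dnaic2, an intermediate chain, was 30.7, 5.89 and 5.72 FPKM in the mutants, against 14.1, 9.18 and 13.0 FPKM in the controls, again with mutant 1 highest (limma adjusted p = 0.0611 with array weights). Dnaic1, the other intermediate chain, was 0, 4.30 and 2.19 FPKM in the mutants, against 7.87, 3.35 and 5.45 FPKM in the controls, and the groups overlapped. Dnah5, an outer arm heavy chain and untested, was 0.540, 0.526 and 0.489 FPKM in the mutants, against 1.68, 1.03 and 1.52 FPKM in the controls. All mutants were below all controls. The other outer arm heavy chains, Dnah9 and Dnah11, and the inner arm chains Dnah2, Dnah6 and Dnah12 had 0 to 3.45 FPKM in single mutants and 0.734 to 3.64 FPKM in single controls. In none of these rows did all 3 mutants lie below the controls. For Dnah12 this depends on the row: in the other one, with a nearly equal mean, the values were 0, 0.523 and 0.456 FPKM in the mutants, against 1.38, 0.801 and 1.14 FPKM in the controls.

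Of the 12 tested genes of radial spokes, the repeat ruler and the central pair, 5 fell, against 1.32% of all tested genes. Rsph1, a protein of the spoke head, was 26.0, 19.9 and 18.3 FPKM in the mutants, against 48.1, 32.5 and 43.3 FPKM in the controls. It averaged 21.4 ± 4.03 FPKM in mutants and 41.3 ± 7.99 FPKM in controls (SD, n = 3 each), with a log2 change of -0.91, SE 0.21, with equal weights and -1.05, SE 0.15, with array weights (limma adjusted p = 0.0279). Rsph4a, of the same spoke head, was 2.84, 1.99 and 2.41 FPKM in the mutants, against 6.57, 4.27 and 5.89 FPKM in the controls. The third spoke head gene, Rsph9, was 41.2, 17.7 and 13.1 FPKM in the mutants, against 21.6, 16.7 and 22.5 FPKM in the controls. Its groups overlapped, and mutant 1 was 203% of the control mean. Its log2 change was 0.080 with equal weights and -0.41 with array weights (limma adjusted p = 0.245), and its sign also turned under other scalings and without control 2.

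Ccdc39 and Ccdc40 together form the ruler that spaces dyneins and spokes along the doublet. Ccdc39 was 2.44, 2.80 and 3.23 FPKM in the mutants, against 6.71, 5.50 and 5.90 FPKM in the controls. It averaged 2.82 ± 0.395 FPKM in mutants and 6.04 ± 0.616 FPKM in controls (SD, n = 3 each; limma adjusted p = 0.0348 with array weights). Ccdc40 was 7.10, 10.1 and 7.09 FPKM in the mutants, against 24.4, 13.6 and 17.6 FPKM in the controls. Neither gene overlapped between genotypes, but only Ccdc39 passed (limma adjusted p = 0.0644 for Ccdc40 with array weights). Ccdc113, a coiled-coil protein of cilia, had the smallest p of all members with array weights. It was 15.6, 4.86 and 4.86 FPKM in the mutants, against 11.0, 9.60 and 11.0 FPKM in the controls, so mutants 2 and 3 were alike and mutant 1 lay above every control (weighted log2 change -0.95, SE 0.12, limma adjusted p = 0.0207). Ropn1l, a spoke protein, was 0, 2.02 and 1.34 FPKM in the mutants, against 4.80, 3.38 and 5.04 FPKM in the controls (limma adjusted p = 0.0475 with array weights).

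The central pair genes did not pass. In all of those measured mutants 2 and 3 lay below the controls, against 20.1% of all tested genes. Spag6 was 3.76, 4.15 and 4.28 FPKM in the mutants, against 12.1, 6.16 and 8.70 FPKM in the controls. Spag17 was 1.09, 0.836 and 0.763 FPKM in the mutants, against 1.79, 1.19 and 1.64 FPKM in the controls. Neither overlapped, but Spag17, like Sntn below, reached the minimum mean only through its controls (limma adjusted p = 0.0996 for Spag6 and 0.166 for Spag17, with array weights). Spag16 and the kinesin Kif9 stood at 48.4% and 50.3% of the control mean in mutants 2 and 3, and mutant 1 lay among the controls. Nme5, of the spoke neck, was 0, 12.3 and 12.3 FPKM in the mutants, against 36.3, 21.4 and 30.1 FPKM in the controls (limma adjusted p = 0.0621 with array weights). Hydin, a very large central pair protein and untested, was 1.07, 0.267 and 0.236 FPKM in the mutants, against 0.908, 0.552 and 0.683 FPKM in the controls.

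Of the 11 genes of tektins and other ciliary proteins, 6 fell, against 1.32% of all tested genes. In all 11, mutants 2 and 3 were below every control, against 20.1% of all tested genes. Sntn encodes sentan, a protein of the tip of mammalian motile cilia. It was 0, 0.106 and 0.122 FPKM in the mutants, against 2.13, 1.23 and 2.58 FPKM in the controls. Mutants 2 and 3 were at 5.76% of the control mean, the lowest share of any member. Sntn reached the minimum mean only through its controls, and it is a low gene in which few fragments decide the mutant values (limma adjusted p = 0.0343 with array weights). Meig1, first known from spermatogenesis, was 0, 16.1 and 12.5 FPKM in the mutants, against 39.9, 31.9 and 39.5 FPKM in the controls. All mutants were below all controls, and mutants 2 and 3 were at 38.5% of the control mean (limma adjusted p = 0.032 with array weights). Enkur, an adaptor protein of the doublet, was 19.95, 5.85 and 4.51 FPKM in the mutants, against 13.1, 9.64 and 12.6 FPKM in the controls, with mutant 1 highest. Tekt4, a filament protein of the doublet wall, was 0, 5.19 and 4.22 FPKM in the mutants, against 14.1, 8.65 and 12.7 FPKM in the controls. The adenylate kinase Ak7 was 0, 2.34 and 2.46 FPKM in the mutants, against 6.30, 4.603 and 6.58 FPKM in the controls. Capsl was 0, 7.17 and 8.34 FPKM in the mutants, against 18.3, 14.97 and 19.3 FPKM in the controls. The limma adjusted p with array weights was 0.0343 for Enkur, 0.0479 for Tekt4, 0.0441 for Ak7 and 0.0418 for Capsl.

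Tppp3, which promotes tubulin polymerization, was the most abundant member. It was 140.7, 145 and 138 FPKM in the mutants, against 230.4, 185 and 264 FPKM in the controls. It averaged 141 ± 3.80 FPKM in mutants and 226 ± 39.5 FPKM in controls (SD, n = 3 each). The 3 mutants were close together and below all controls, and the log2 change was -0.65, SE 0.13, with array weights (limma adjusted p = 0.0558). Tekt1 and Tekt2 were also without overlap. Tekt1 was 20.9, 18.2 and 14.96 FPKM in the mutants, against 30.01, 21.99 and 30.4 FPKM in the controls. Tekt2 was 6.45, 13.5 and 8.57 FPKM in the mutants, against 18.8, 16.9 and 20.8 FPKM in the controls. Their limma adjusted p with array weights was 0.0624 for Tekt1 and 0.0574 for Tekt2. Pifo and Mns1 were at 53.1% and 69.6% of the control mean in mutants 2 and 3, and at 312% and 202% in mutant 1.

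**Figure D3:**
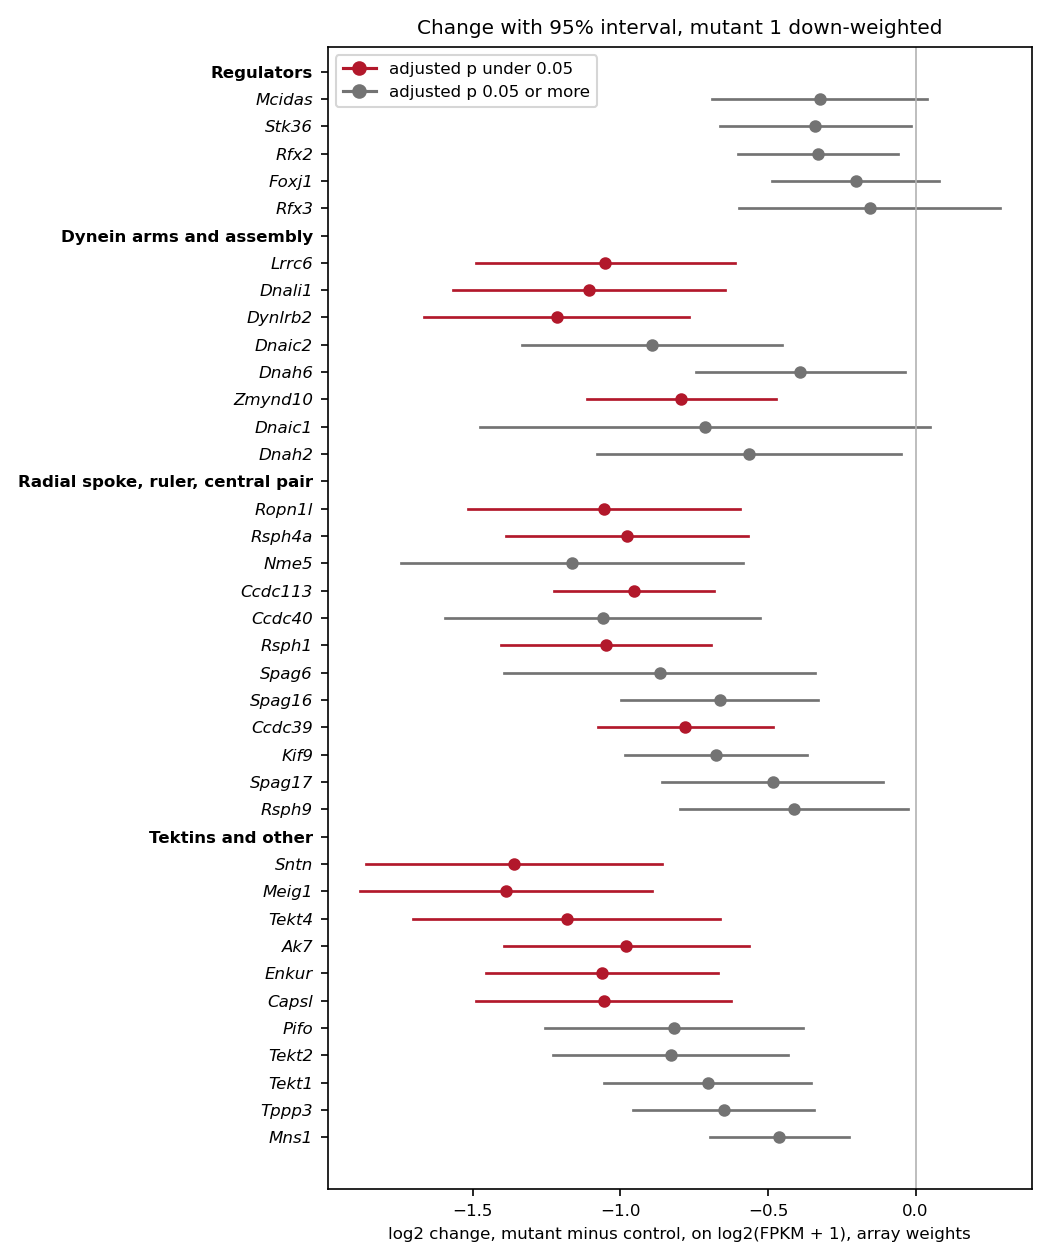
Log2 change, mutant minus control, of each tested member with array weights (horizontal axis, on log2(FPKM + 1)), with 95% intervals. Red marks the 15 members with a limma adjusted p under 0.05; all lie below 0, and the 5 regulators lie nearer to 0 than most structural genes.

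A p under 0.05 with a lower mutant mean stood in the authors' deposited table for 13 of 36 tested members, against 3.64% of all tested genes. The smallest p of a member in the authors' deposited table was 0.00143, for Ccdc39. Only 13 of the tested members have a q in the authors' deposited table, Ccdc39 and Sntn not among them, and the smallest is 0.26, for Dnali1. Which test gave these values is not stated.

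Because RFX factors bind the X-box, a palindrome-like site found before many ciliary genes, promoters were searched for its letters. RefSeq windows on GRCm38.p6, from 250 before to 50 after the transcription start, were found for 35 members, with 42 windows in all because some genes have several starts. Foxj1, Rsph1, Rsph4a, Tppp3, Nme5 and Lrrc6 were not matched. The half-site GTTGCC, on either strand, was in the windows of 20 of 35 members, against 14.1% of the 27025 genes with a window. The full form, in which GT, CC, GG and AC follow one another with 2 bases of any kind between them, can contain the half-site. It was in those of 6 members (Tekt4, Rfx2, Kif9, Rsph9, Zmynd10 and Pifo), against 2.16% of genes. The forkhead letters TGTTTAC, on either strand, were in those of 2 members, Sntn and Ak7, against 4.05% of genes. These counts describe letters in a window and not bound sites.

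The first 5 members with a full form, in order of p with equal weights, are shown with that of Sntn, which was added after its values were seen because its share of the control level was the lowest. Capitals mark the full form or, apart from it, the half-site on either strand (GGCAAC is its reverse complement). Each is written 5′ to 3′ on the strand of its gene, from RefSeq on GRCm38.p6.
Tekt4 (chr17:25471340-25471639, plus strand): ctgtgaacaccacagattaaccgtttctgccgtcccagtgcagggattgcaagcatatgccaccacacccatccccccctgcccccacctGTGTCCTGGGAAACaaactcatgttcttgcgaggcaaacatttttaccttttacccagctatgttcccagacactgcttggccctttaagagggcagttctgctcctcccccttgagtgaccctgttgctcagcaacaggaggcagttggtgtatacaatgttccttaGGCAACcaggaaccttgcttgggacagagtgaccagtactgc
Rfx2 (chr17:56830959-56831258, minus strand): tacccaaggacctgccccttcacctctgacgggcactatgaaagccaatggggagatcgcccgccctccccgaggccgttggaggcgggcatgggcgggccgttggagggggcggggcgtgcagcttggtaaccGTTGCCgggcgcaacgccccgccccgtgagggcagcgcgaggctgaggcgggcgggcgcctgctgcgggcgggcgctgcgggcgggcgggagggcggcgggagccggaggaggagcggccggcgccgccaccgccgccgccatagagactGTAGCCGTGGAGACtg
Kif9 (chr9:110476708-110477007, plus strand): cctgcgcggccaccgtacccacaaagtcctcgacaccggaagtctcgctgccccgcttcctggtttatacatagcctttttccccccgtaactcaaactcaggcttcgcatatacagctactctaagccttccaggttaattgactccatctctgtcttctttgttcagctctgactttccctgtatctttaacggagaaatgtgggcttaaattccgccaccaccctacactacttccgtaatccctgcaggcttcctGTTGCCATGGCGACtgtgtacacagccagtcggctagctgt
Rsph9 (chr17:46144151-46144450, minus strand): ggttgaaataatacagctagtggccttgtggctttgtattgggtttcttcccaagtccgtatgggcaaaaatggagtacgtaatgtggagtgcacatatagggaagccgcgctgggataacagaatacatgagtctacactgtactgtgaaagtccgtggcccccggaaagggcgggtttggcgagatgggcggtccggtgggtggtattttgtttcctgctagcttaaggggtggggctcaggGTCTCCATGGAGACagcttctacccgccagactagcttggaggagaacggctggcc
Zmynd10 (chr9:107547054-107547353, plus strand): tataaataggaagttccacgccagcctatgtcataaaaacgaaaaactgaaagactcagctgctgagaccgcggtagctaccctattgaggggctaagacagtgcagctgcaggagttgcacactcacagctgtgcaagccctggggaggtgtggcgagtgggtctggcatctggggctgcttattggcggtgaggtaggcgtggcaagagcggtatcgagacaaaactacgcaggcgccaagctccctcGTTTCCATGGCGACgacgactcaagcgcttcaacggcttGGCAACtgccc
Sntn (chr14:13670626-13670925, plus strand): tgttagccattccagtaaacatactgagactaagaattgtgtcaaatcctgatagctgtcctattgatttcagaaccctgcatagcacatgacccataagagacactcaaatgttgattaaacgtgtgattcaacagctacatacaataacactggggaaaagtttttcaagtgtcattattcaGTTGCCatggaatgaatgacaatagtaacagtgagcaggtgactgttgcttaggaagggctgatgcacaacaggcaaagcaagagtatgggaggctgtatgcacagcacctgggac
In Kif9, Rsph9 and Zmynd10 the full form began at 9, -6 and 0 bases from the transcription start, in Rfx2 at 34 and in Tekt4 at -160. From another Kif9 start, whose window is not shown, the same site began at -27. Kif9, Zmynd10 and Tekt4 were at 50.3%, 55.7% and 39.8% of the control mean in mutants 2 and 3, and Rsph9 and Rfx2, which also hold the full form, at 76.0% and 78.4%.

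Other genes of the motile cilium were counted the same way. They too were chosen with earlier results of these data known. Of the further genes on a list of dyneins, assembly factors, ruler and spoke proteins and regulators of multiciliated cells, 68 had a row and 63 were tested. With array weights limma called 20 of these, all lower, against 1.32% of all tested genes called lower. Mutants 2 and 3 lay below the controls in 47 of 63 of them, against 20.1% of all tested genes. Their median log2 change was -0.76 with equal weights and -0.72 with array weights. Odf3b, of the outer dense fibre family, was 0, 1.38 and 0.933 FPKM in the mutants, against 6.05, 4.72 and 8.03 FPKM in the controls (limma adjusted p = 0.0201 with array weights). Wdr63, a dynein-associated protein, was 2.80, 3.37 and 3.36 FPKM in the mutants, against 8.27, 6.41 and 8.16 FPKM in the controls (limma adjusted p = 0.0245 with array weights). Neither overlapped between genotypes. Ccdc78 was 0, 1.01 and 1.28 FPKM in the mutants, against 5.75, 3.86 and 5.82 FPKM in the controls (limma adjusted p = 0.0223 with array weights). Odf3b and Ccdc78, both listed at 0 in mutant 1, averaged under 1 FPKM in the mutants and reached the minimum mean only through their controls.

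The same list holds early genes of multiciliated cells: Gmnc, Ccno, Myb, Cdc20b, Foxn4, Ccdc67, Ccdc78 and Trp73. They were set apart after their values were seen, so no pattern is drawn from them. Their levels in mutants 2 and 3 ranged from 22.2% of the control mean for Ccdc78, and 61.0% for Ccdc67, to 91.9% for Trp73. Ccno, a cyclin-like protein needed to make many basal bodies, was 4.97, 16.6 and 14.5 FPKM in the mutants, against 18.5, 16.8 and 19.4 FPKM in the controls. Its groups did not overlap, but mutant 2 and control 2 were nearly equal. Of those tested only Ccdc78 was called by limma with array weights.

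Genes of intraflagellar transport and the primary cilium, which most cells express, were measured beside them. Of 34, limma called 1 lower with array weights, against 1.32% of all tested genes. The median level of the 34 in mutants 2 and 3 was 86.6% of the control mean, against 49.2% for the tested members. Mutants 2 and 3 lay below all controls in 15 of 34, against 20.1% of all tested genes, and 30 of 34 weighted changes were below 0, against 53.5%. The called one was Traf3ip1, a transport protein, at 8.14, 8.05 and 7.82 FPKM in the mutants, against 12.2, 11.2 and 12.1 FPKM in the controls (limma adjusted p = 0.0377). Its groups did not overlap, and without mutant 1 its limma adjusted p was 0.0871.

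Some markers of epithelia that can hold ciliated cells were also called lower. With array weights 7 of 13 genes of basal epithelium were called lower, with a summed level of 378 to 430 FPKM in mutants and 642 to 662 FPKM in controls. Of 21 tested genes of simple epithelium 3 were called lower (summed 319 to 389 FPKM in mutants and 459 to 502 FPKM in controls), and of 6 tested airway secretory genes 2 (summed 76.9 to 91.0 FPKM in mutants and 119 to 164 FPKM in controls). Over all tested genes 1.32% were called lower in that fit. With equal weights none of these genes was called by limma, and without mutant 1 the calls were 1 basal gene, Krt5, 1 simple epithelial gene, Krt19, and no secretory gene. The called secretory genes were Aldh1a1 and Cyp2f2, and Scgb1a1, the defining secretoglobin of club cells, was listed at 0 in every library. Of the 15 genes on the secretory list, 9 were under 1 FPKM in every library. In mutants 2 and 3 the simple epithelial genes had a median level of 81.8% of the control mean, and the highest stood at 131%. The 41 members themselves summed to 631, 483 and 433 FPKM in the mutants, against 904, 663 and 893 FPKM in the controls. Cartilage genes differed in the other direction: with array weights 5 of 19 were called higher, against 113 of all 15710 tested genes. With equal weights or without mutant 1 the count was 0. Mutants 2 and 3 lay above all controls in 15 of 19 cartilage genes, against 16.2% of all tested genes. The part of the epithelial and cartilage genes in the result for cilia genes was not tested. On the lists for olfactory epithelium, otic epithelium, neurons and pituitary, 6, 4, 11 and 6 genes were tested. None was called with array weights, against 2.04% of all tested genes called in either direction. With so few genes, the lack of calls does not show that these lists were unchanged. The sperm list, whose cells share axoneme genes, had 9 of 10 genes under 1 FPKM in every library and 4 listed at 0. A listed 0 does not show absence in these values, since mt-Co1, a mitochondrial gene that every cell uses, is listed at 0 in all 6 libraries.

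**Figure D4:**
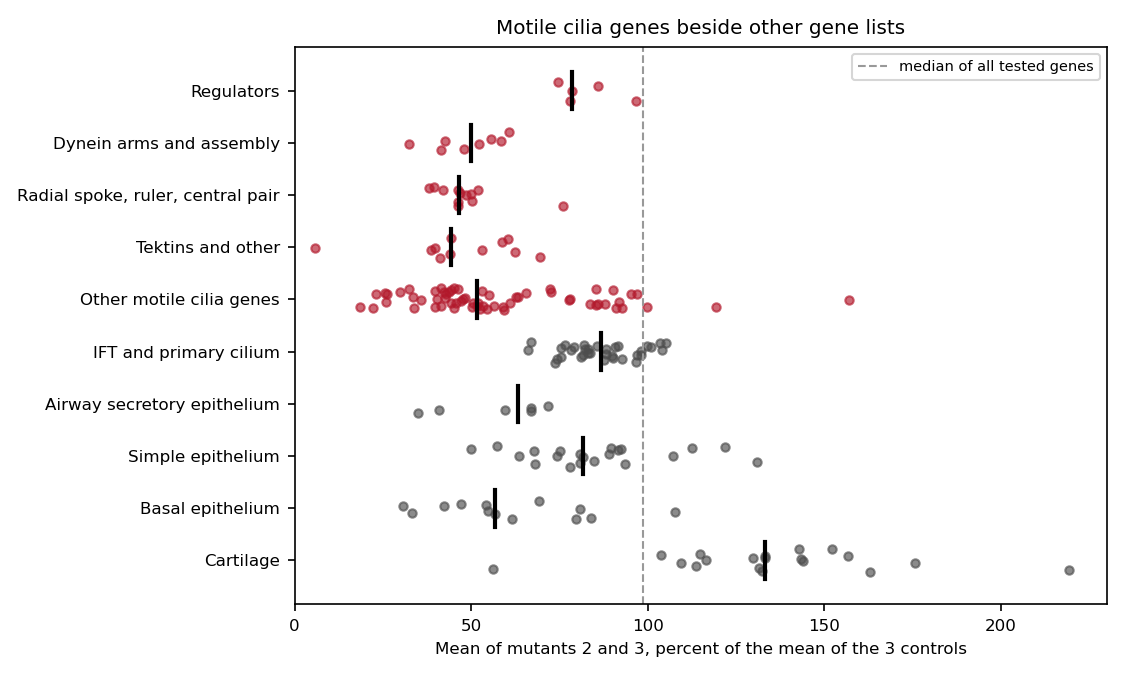
Mean of mutants 2 and 3 as a percentage of the mean of the 3 controls (horizontal axis) for each tested gene of 10 lists; points are genes, black bars medians, and the dashed line the median of all tested genes, 98.6%. Structural motile cilia genes centre between 44.3% and 50.1%, regulators at 78.4%, intraflagellar transport genes at 86.6% and basal epithelium at 56.7%.

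The members varied together among the controls too. Control 2 was the lowest control in 33 of 36 tested members, against 27.7% of all tested genes. Control 2 also differed in markers of other tissue: the choroid plexus gene Ttr was 0, 0.135 and 0.519 FPKM in the mutants, against 0.252, 58.3 and 0.169 FPKM in the controls. The otic list summed to 1.21, 13.0 and 16.2 FPKM in the mutants, against 11.3, 87.3 and 10.5 FPKM in the controls. The pituitary list was high in mutant 2, at 139 FPKM, and in control 2, at 113 FPKM, and 15.4 to 25.5 FPKM in the other libraries. The ependyma and choroid plexus list covers cells with motile cilia. It summed to 32.8 to 34.0 FPKM in mutants and 37.6 to 103 FPKM in controls. With array weights 0 of its 7 tested genes were called, against 2.04% of all tested genes. Among embryos with the same first word in their titles, mutant 3 lay below controls 2 and 3 in 36 of 36 tested members, against 37.4% of all tested genes. In the other such pair mutant 1 lay below control 1 in 26 of 36 and above it in 10, against 53.3% of all tested genes below. The meaning of that word is not stated.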

How the data were processed

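Values are FPKM as deposited by the authors, made with Cufflinks on mm9, per the submitters' processing notes, which name no version. The unit was inferred from that tool and the values. The deposited p-value and q-value are the authors' own, and the test behind them is not stated. The deposited signed fold is a score by the authors and was not used. Entries with a missing-value code in any library (15) were left out.

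Of the entries, 15710 averaged 1 FPKM or more and were tested. The fit used limma 3.58.1 (R 4.3.3) on log2(FPKM + 1) with trend and robust empirical Bayes. Genotype was its sole term, tests were two-sided, and Benjamini-Hochberg adjustment ran over all tested entries at 0.05. Alternatives were array weights, the first word of the title as a random effect (statmod 1.5.0), zeros of mutant 1 as missing, other filters, scalings and a pseudocount of 0.1, and leaving out each library. The fit was tested on simulated data, drawn independently for each gene, with 200 genes lowered 1.5-fold, 2-fold or 4-fold on the fitted scale. Equal weights recovered 0%, 0% and 50% of them, in that order. Array weights recovered 67.5%, 98% and 100%, and the fit without mutant 1 recovered 75.5%, 99% and 100%. Unchanged genes called lower numbered 0 with equal weights, 2 to 4 with array weights and 3 to 10 without mutant 1. The lowered genes averaged 3 FPKM or more, so low members such as Sntn and Spag17 lie outside this simulation. Mutant 1 was drawn with a spread of its own but without its listed zeros. The simulated rates therefore do not cover calls on low genes or on genes at 0 in mutant 1. Members and lists were chosen with earlier results of these data known. All members are named, with each library's value for most regulators, for tested members without overlap and for the 12 with the smallest p. Other lists give up to 4 genes with the smallest p. Values of further genes, among them several dyneins and the early genes of multiciliated cells, were added after they were seen. Replicates are separate embryos by label, and their numbers pair no samples. Any pair of libraries shared at most 0.00637% equal values. Relative depth came from low values within 2% of a common step.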

Additional observations from a re-analysis of the deposited data

How the results depend on the processing

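With equal weights limma called 0 genes (473 lower and 332 higher at an unadjusted p under 0.05), against 320 with array weights and 1 with quantile normalization. Members called were 15 with array weights and 0 in the other fits of all 6 libraries, and other motile cilia genes 20 and 0. Leaving out 1 library in turn with equal weights gave 0 to 7 genes, 0 members and 0 other motile cilia genes. The same with array weights, chosen after seeing the data, gave 7, 0, 0, 104, 232 and 51 genes without mutants 1, 2 and 3 and controls 1, 2 and 3. Members were then 0, 0, 0, 2, 19 and 0, and other motile cilia genes 0, 0, 0, 3, 19 and 2. The median log2 change of the members stayed below 0 in every fit, from -0.98 (array weights without control 2) to -0.51 (equal weights without control 1). With the title word as a random replicate block it was -0.60, with 0 genes, 0 members and 0 other motile cilia genes called.

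Some signs turned. Rsph9 was -0.41 with array weights, -0.0076 with median scaling and -0.023 with quantile normalization. Quantile normalization gave 0.17 for Dnah6 and 0.0041 for Spag17, and the replicate block 0.0051 for Mns1. Without 1 library, log2 changes with equal weights ranged from -0.21 to 0.089 for Foxj1, -0.41 to 0.074 for Dnah6, -0.92 to 0.19 for Dnaic2, -0.80 to 0.34 for Zmynd10, -0.38 to 0.41 for Rsph9, -0.49 to 0.28 for Mns1 and -0.83 to 0.42 for Pifo. With array weights, the turned values lay at 0.048 and 0.10 for Foxj1, 0.078 and 0.067 for Dnah6, 0.19 and 0.21 for Dnaic2, 0.28 and 0.35 for Zmynd10, 0.28 and 0.20 for Mns1 and 0.37 and 0.42 for Pifo, without mutant 2 and without mutant 3 in that order. For Rsph9 they were -0.36, -0.39, -0.56 and -0.35, without mutant 1 and without controls 1, 2 and 3. The cause was not tested. With 3 libraries a group, each p-value sets a difference only against the spread between these embryos, which limma moderates over all tested genes. An exact permutation test of 1 gene cannot go below 0.1.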
